A study of Mus musculus with 2 samples.

Results

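The regions described here are the short ones that were called in both replicates of a Myc-tag ChIP-seq experiment on mouse corneal epithelium. A called region is a stretch of the genome where the peak caller found an excess of reads. Members were chosen by width and overlap: a region under 105 bp wide in the sample 1 list had to overlap, by 1 bp or more, a region under 100 bp wide in the sample 2 list, on chromosomes 1 to 19 or X. This gave 7505 pairs among the 20626 overlapping pairs on these chromosomes, or 36.4% (exact 95% interval 35.7 to 37.0%). No pair shared a region with another, so merging each pair gave 7505 separate merged regions. The full lists hold 25592 regions in sample 1 and 42619 in sample 2. Widths chose the members, so their widths are a description and support nothing.

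Both samples belong to 1 group, epithelium of K14 DN-Clim mice at postnatal day 7. The keratin 14 promoter drives a Myc-tagged dominant-negative Clim in basal epithelial cells, and the antibody was raised against the tag. No input, untagged or wild-type library was analysed here. The lists carry no read counts, so depth is unknown, and intervals cover counting error over regions only. The labels do not say whether the replicates came from different animals.

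Clim proteins, also called Ldb, bridge LIM-domain transcription factors and other DNA-binding proteins, and they reach chromatin through these partners because they do not bind DNA themselves. A dominant-negative form keeps the contact with the partners and blocks the bridge. A called region can therefore mark a partner's site, although whether any member does was not tested. Members have mm9 coordinates, while the sequence and gene tables at hand use GRCm38, so the sequence, motifs and genes at the members were not analysed here.

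The members were short and similar in size. In sample 1 their width ran from 68 to 104 bp with a median of 76 bp, and the commonest width of 72 bp was held by 576 members. In sample 2 it ran from 53 to 99 bp with a median of 65 bp, and the commonest width of 60 bp was held by 413 members. The merged regions had a median of 80 bp, an interquartile range of 75 to 88 bp and a maximum of 141 bp. Together they covered 619.4 kb, or 0.0241% of the length spanned by the lists. Neither limit fell at a gap in the widths. The last 5 bp inside the sample 1 limit, 100 to 104 bp, held 187 members, and the first 5 bp outside it, 105 to 109 bp, held 142 pairs that were narrow in sample 2. At the sample 2 limit, 95 to 99 bp held 311 members, and 100 to 104 bp held 298 pairs that were narrow in sample 1, so the widths ran through this limit with little change. Overall 5609 pairs met the sample 1 limit alone and 2707 the sample 2 limit alone.

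**Figure D1:**
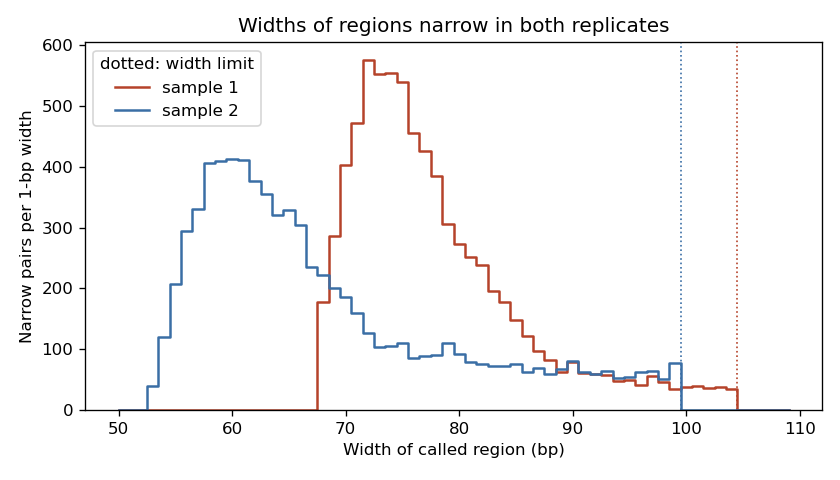
Number of narrow pairs (vertical axis) at each width in bp (horizontal axis) in sample 1 and sample 2, with each sample's width limit as a dotted line. Sample 1 widths start at 68 bp and sample 2 widths at 53 bp, and sample 2 has a flat stretch of widths that runs up to its limit.

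Within a pair the sample 1 region was usually the wider one. It was wider in 6423 members (85.6%), both widths were equal in 43, and the sample 2 region was wider in 1039 (13.8%). The median difference was 13 bp, and 3300 members (44.0%) differed by 12 to 16 bp. The widths went together, with Spearman's rho 0.508 over the 7505 pairs, which share their libraries and are not independent. Members overlapped far beyond the 1 bp the rule asked for. The shortest overlap among the members was 50 bp and the median 62 bp. Exactly 50 bp occurred in 1 member, 51 bp in 4 and 52 bp in 57. The reads had 50 cycles, and a link between the read length and this lower bound was not tested. Overlaps of less than 50 bp were also rare in the other classes. They occurred in 1 of 5609 pairs that met the sample 1 limit alone and 1 of 2707 that met the sample 2 limit alone. Among the pairs wide in both lists, whose regions are longer, 14 of 4805 overlapped by less than 50 bp.

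The extra width of sample 1 often lay on 1 side of the region. In 1974 members (26.3%) the starts lay within 3 bp of each other while the sample 2 end was 12 to 18 bp further in. In 1869 members (24.9%) the ends lay within 3 bp while the sample 2 start was 12 to 18 bp further in. Both starts and ends lay within 3 bp in only 132 members (1.76%). A symmetric inset, with both sample 2 edges 6 to 10 bp further in, was found in 6 members. The sample 2 region lay inside the sample 1 region, shared edges included, in 2559 members (34.1%). Unequal insets on both sides were not counted separately. The commonest of the 1381 edge combinations were an equal start with an end 16 bp further in, held by 208 members, and an equal end with a start 16 bp further in, held by 174.

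Accordingly, the region centres of the replicates fell into a pair of mirrored groups. The sample 2 centre lay 4 to 12 bp to the left of the sample 1 centre, towards lower coordinates, in 3143 members (41.9%, exact 95% interval 40.8 to 43.0%). It lay 4 to 12 bp to the right in 2989 (39.8%, 38.7 to 40.9%). Centres within 2 bp of each other were found in 269 members (3.58%) and identical centres in 26. The median distance between centres, regardless of side, was 8 bp with an interquartile range of 7 to 9.5 bp. In the pairs wide in both lists, 587 of 4805 (12.2%) lay 4 to 12 bp to the left, 559 (11.6%) lay 4 to 12 bp to the right and 382 (7.95%) lay within 2 bp. The wide pairs had small modes near the same distances and one at 0, with a median distance of 22 bp. The width limits restrict how far centres can lie apart, so the difference between the classes follows in part from the rule and was given no test.

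**Figure D2:**
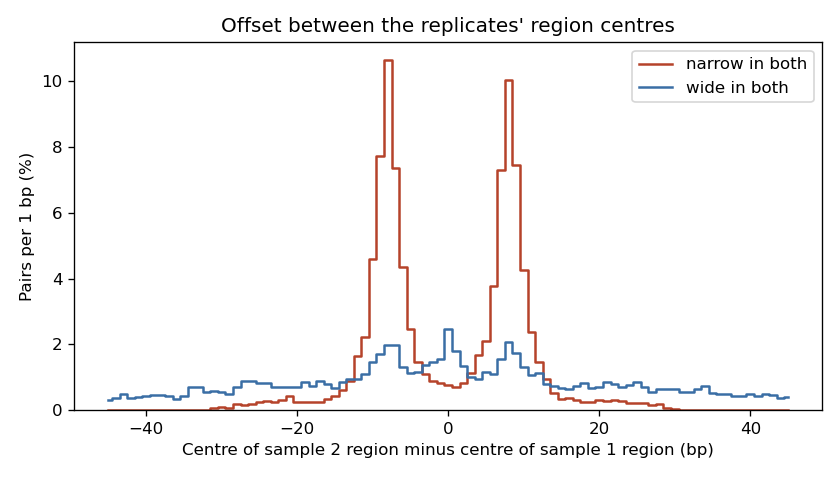
Share of pairs (vertical axis, % per 1 bp) by the position of the sample 2 centre relative to the sample 1 centre in bp (horizontal axis), for pairs narrow in both lists and pairs wide in both lists; negative values lie towards lower coordinates. Narrow pairs form peaks about 8 bp on either side of 0 with few pairs between, and wide pairs are spread out with lower modes near the same offsets and at 0.

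The left and right groups were alike in the other values of the lists. Left-offset members had a median width of 76 bp in sample 1 and 63 bp in sample 2, and right-offset members had the same medians. Median scores were 200.1 in sample 1 and 113.6 in sample 2 for left-offset members, and 198.2 in sample 1 and 109.8 in sample 2 for right-offset members. The left share of both groups was 51.3% over all chromosomes (exact 95% interval 50.0 to 52.5%) and ran from 42.9% on chromosome 16 to 56.7% on chromosome 5. Neighbouring members took sides in all combinations. Of 50 neighbours less than 1 kb apart that both had a side, 11 were left and left, 11 left and right, 15 right and left and 13 right and right, read in the direction of rising coordinates. Of the 209 neighbours 1 to 10 kb apart, these combinations held 52, 48, 69 and 40. The 859 members with centres more than 12 bp apart differed in shape, with a median width of 77 bp in sample 1 and 83 bp in sample 2. Their median scores were 176.3 in sample 1 and 92.5 in sample 2.

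The score is the authors' own value from the peak caller, and what it measures is not stated, so it is read here within a list only. By their medians, members stood in the upper part of both lists, but only 3890 of the 7505 lay in the upper 50% of both by score. In sample 1 their scores ran from 81.66 to 662.45 with a median of 197.7, at percentile 65.2 of that list. In sample 2 they ran from 50.04 to 461.18 with a median of 108.0, at percentile 72.6. Narrow sample 1 regions with a wide partner had a median of 199.98, close to that of the members, and those with no partner had 176.3. Narrow sample 2 regions with a wide partner had a median of 105.6, and those with no partner had 91.1. Of the narrow sample 1 regions, the members made up 46.8%, 35.0% had only a wide partner and 18.3% had none. Of the narrow sample 2 regions, these were 37.2%, 13.4% and 49.4%. The pairs wide in both lists had lower medians, 121.9 in sample 1 and 92.8 in sample 2, but a longer upper tail, which reached 3100 in both lists.

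Many members shared their score with other members. In sample 1 the 7505 members held 910 distinct scores, against 3447 distinct scores among the 4805 pairs wide in both lists. A score of 172.77 occurred in 152 members, whose sample 1 widths ran from 68 to 102 bp with a median of 71 bp. Scores held by 10 or more members accounted for 5573 members (74.3%) in sample 1, while scores held by 10 or more wide pairs accounted for 45 wide pairs (0.937%). In sample 2 the contrast was small, with 3067 members (40.9%) and 1735 wide pairs (36.1%) on such scores. The commonest sample 2 score among members, 104.28, occurred in 49 of them.

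Scores went with width, but not in 1 direction. In sample 1 the median score was 166.7 for the 867 members of 67 to 70 bp and 190.5 for the 2696 members of 71 to 75 bp. It was 221.3 for the 1845 members of 76 to 80 bp and 242.6 for the 1455 members of 81 to 90 bp. Among the 642 members of 91 to 104 bp, the widest, it was 186.3. Sample 2 followed the same course. Its median score was 103.1 at 51 to 56 bp (663 members), 108.7 at 57 to 60 bp (1560 members) and 113.9 at 61 to 65 bp (1793 members). It was 117.8 at 66 to 75 bp (1753 members) and 96.8 at 76 to 99 bp (1736 members). Scores also went with the width in the other list. For the same sample 1 width bins, median sample 2 scores were 95.5, 104.3, 110.8, 119.4 and 119.7. Sample 1 scores over the sample 2 width bins were 172.0, 186.1, 204.7, 227.5 and 198.4, lower again in the widest bin.

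The scores of members agreed weakly between the replicates. Over the 7505 members Spearman's rho between the scores was 0.078 and Pearson's r was 0.108. The rank correlation was 0.259 over pairs that met the sample 1 width limit alone, 0.170 over those that met the sample 2 limit alone and 0.473 over pairs wide in both lists, and the differences between classes were not tested. Ranks above or below the median were split almost evenly: 1946 members (25.9%) were at or above the median in both samples and 1942 (25.9%) below it in both. A further 1809 (24.1%) were at or above it in sample 1 only and 1808 (24.1%) in sample 2 only. Among the 754 members in the highest 10% of member scores in sample 1 and the 770 in that of sample 2, 123 were in both, 16.3% and 15.97% of these sets. Unrelated ranks would place about 10% of each set in the other. The members with the 5 highest sample 1 scores ranged widely in sample 2. The member on chromosome 16 from 90523336 to 90523434 had the highest sample 1 score, 662.45, and a sample 2 score of 73.05, above only 18.5% of the members. The next, on chromosome 3 from 130497077 to 130497175, scored 636.50 in sample 1 and 68.15 in sample 2, and the third, on chromosome 13 from 73599742 to 73599846, scored 635.39 and 61.34. The fourth, on chromosome 11 from 116468852 to 116468952, scored 618.65 and 113.97, and the fifth, on chromosome 6 from 82004226 to 82004328, scored 598.68 and 142.42, above 53.8% and 73.5% of the members in sample 2. The members with the highest sample 2 scores stood high in sample 1 as well. The first of these lay on chromosome 16 from 97871709 to 97871815 and scored 389.60 in sample 1 and 461.18 in sample 2. These regions were picked by their scores in 1 list, after the values were seen.

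**Figure D3:**
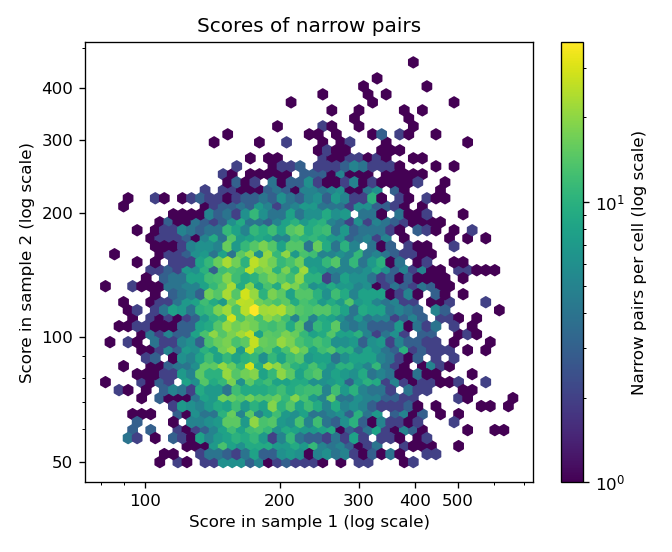
Score of each of the 7505 members in sample 1 (horizontal axis, log scale) against its score in sample 2 (vertical axis, log scale), with colour for the number of members per cell on a log scale. The cloud is broad, and the members with the 3 highest sample 1 scores lie low in sample 2.

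Members were ranked by averaging the percentile of each score within its own list. The strongest members lay on 7 chromosomes, 3 of them on chromosome 10. The first was on chromosome 11 from 77810700 to 77810795, 93 bp wide in sample 1 and 80 bp in sample 2, with scores of 529.38 and 295.19. The second was on chromosome 2 from 131498304 to 131498399, 95 bp and 77 bp wide in samples 1 and 2, with scores of 480.90 and 363.46. These first regions were therefore wider than the typical member in both samples. On chromosome 10 the members at 89285560 to 89285644, at 60469360 to 60469449 and at 92760845 to 92760933 scored 484.60, 438.26 and 465.98 in sample 1. Their sample 2 scores were 256.93, 260.68 and 230.28. On chromosome 7 the member from 115826107 to 115826201 scored 418.87 in sample 1 and 400.59 in sample 2, and the member from 13902358 to 13902442 scored 415.72 and 356.89. The chromosome 6 member, which spans 52641775 to 52641860, scored 446.97 in sample 1 and 305.94 in sample 2. The chromosome 5 member (111065376 to 111065459) scored 458.57 and 234.56. The last of these 10, on chromosome X with the span 53092022 to 53092123, scored 412.09 and 266.29. The X member was the exception in shape, with 78 bp in sample 1 and 98 bp in sample 2. Among these 10, the sample 2 centre lay to the right of the sample 1 centre in all but the members on chromosome 5 and at 92760845 on chromosome 10.

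Members were spread over all 20 chromosomes. On the autosomes the density ran from 2.33 to 3.69 members per Mb of spanned length, a 1.58-fold range, with 2.98 per Mb over all 19. Chromosome 5 was densest, with 552 members at 3.69 per Mb, and its share of the members was 1.27 times its share of the spanned length (exact 95% interval 1.17 to 1.37). Chromosome 11 followed with 437 members at 3.68 per Mb, chromosome 19 with 213 at 3.66 per Mb and chromosome 17 with 334 at 3.63 per Mb. The intervals of these neighbours in the order overlap widely. Chromosome 3 was the sparsest autosome, with 365 members at 2.33 per Mb (0.8002 times its share of length, 0.722 to 0.884), followed by chromosome 14 with 301 at 2.47 per Mb and chromosome 1 with 479 at 2.47 per Mb. Regions cluster, as described below for windows, so these intervals are too narrow. Chromosomes dense in members were also dense in wide pairs (Spearman's rho 0.909 over 19 autosomes). Protein-coding gene density, from the chromosome totals of the RefSeq table, went with the density of members (Pearson's r 0.539, Spearman's rho 0.574) and with that of wide pairs (0.729 and 0.772). These are descriptions over 19 chromosomes of the same libraries, and the difference between them was not tested.

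Chromosome X held more members, relative to wide pairs, than any autosome. It had 324 members, 2.01 per Mb, which was 0.675 times the autosomal density, and 90 merged wide pairs, 0.558 per Mb, which was 0.287 times the autosomal density of wide pairs. X thus had 3.60 members for each wide pair, while the 19 autosomes had 1.43 to 1.85, with a mean of 1.54 ± 0.101 (SD over 19 autosomes). Of the members 4.32% lay on X, against 1.89% of the wide pairs. The odds ratio was 2.35 (exact 95% interval 1.85 to 3.01; two-sided Fisher's exact test, p = 5.55e-14, adjusted p = 8.33e-14 over 3 comparisons). Against pairs narrow in sample 1 and wide in sample 2, of which 1.78% lay on X, the odds ratio was 2.48 (1.97 to 3.15, Fisher's exact test, adjusted p = 2.21e-16). Against pairs wide in sample 1 and narrow in sample 2, of which 2.94% lay on X, it was 1.49 (1.16 to 1.94, Fisher's exact test, adjusted p = 0.00148). The test counts regions as independent, which they are not, so its intervals are too narrow and its p-values too small. In windows of 1 Mb on X, the variance was 1.93 times the mean for members and 1.67 times for wide pairs. X lay outside the range of the 19 autosomes in the number of members per wide pair.

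The lists taken alone differed in this respect. The odds ratio of narrow against wide regions on X was 2.28 in the sample 2 list and 1.28 in the sample 1 list. The narrow regions of each list include the members. In sample 2, X held 4.36% of the narrow regions with no partner (exact 95% interval 3.96 to 4.78%), as much as of the members, and 1.87% of all wide regions (1.69 to 2.05%). In sample 1, X held 2.52% of the narrow regions with no partner (1.99 to 3.16%) and 2.43% of all wide regions (2.13 to 2.76%). Of the narrow regions with only a wide partner, X held 1.78% in sample 1 (1.45 to 2.16%) and 2.96% in sample 2 (2.35 to 3.66%). The share of members on X was lowest in the lowest score quartile of sample 1, at 2.61% (1.94 to 3.44%), and was 4.64%, 4.80% and 5.22% in the quartiles above it. By sample 2 score the quartiles held 3.84%, 3.84%, 4.80% and 4.80%. All sample 1 quartile boundaries, and the highest of sample 2, fell on tied scores. Ties were divided in chromosome order with X last, so tied members on X entered the higher quartile. The effect of this on the shares was not tested. In the wide pairs no quartile of either list exceeded 2.50%. Members on X had a median score of 207.4 in sample 1 and 116.5 in sample 2. Both lay slightly above the chromosome medians on the autosomes, 189.9 to 205.9 in sample 1 and 100.4 to 115.6 in sample 2. These small differences in score were not tested. The median width of members on X was 76 bp in sample 1, inside the autosomal range of 75 to 77 bp. In sample 2 it was 63 bp, below the autosomal range of 64 to 66 bp. The sex of the animals, and with it the number of X copies, is not given in the labels.

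**Figure D4:**
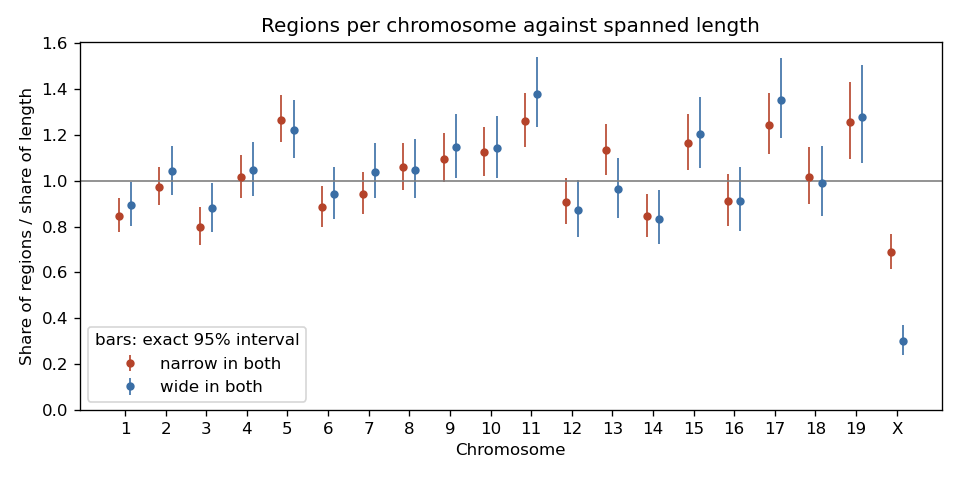
Share of merged regions on each chromosome divided by its share of the spanned length (vertical axis) for regions narrow in both lists and regions wide in both lists, with exact 95% binomial intervals. The classes lie close together on the autosomes and apart on X, where narrow pairs are at 0.689 and wide pairs at 0.301.

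Along the autosomes, members were denser towards the distal end, the end far from the centromere in mouse. When each autosome was divided into 3 parts of equal length, the proximal parts held 2037 members (2.53 per Mb), the middle parts 2225 (2.77 per Mb) and the distal parts 2919 (3.63 per Mb). These parts held 28.4%, 31.0% and 40.6% of the autosomal members, against 28.5%, 30.5% and 41.0% of the wide pairs. On X the members were spread evenly, with 108, 114 and 102 in the same order.

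Members were spread unevenly in windows of either size. In 2387 autosomal windows of 1 Mb the mean count was 2.98 members, the median 2 and the highest 15, and the variance was 2.07 times the mean. No member lay in 329 windows (13.8%), and 47 windows held at least 10. Wide pairs left 586 windows empty (24.5%), with a variance 1.76 times the mean of 1.94. Because this ratio grows with the mean count, the excess over 1 was divided by the mean, which gave 0.361 for members and 0.394 for wide pairs. The ratio was 3.48 for all narrow sample 1 regions and 3.30 for all narrow sample 2 regions, which are denser. Windows rich in members were also rich in wide pairs. Windows with no member held a mean of 0.903 wide pairs, those with 3 members 1.91 and those with 9 members 4.10 (Spearman's rho 0.450 over 2387 windows, which are not independent). Counts in adjacent windows went together with a rho of 0.288. In windows of 100 kb, where the mean was 0.297 members and 75.7% of the windows were empty, the variance was 1.15 times the mean. The excess divided by the mean was 0.491 there, higher than in windows of 1 Mb, and 0.640 for wide pairs.

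**Figure D5:**
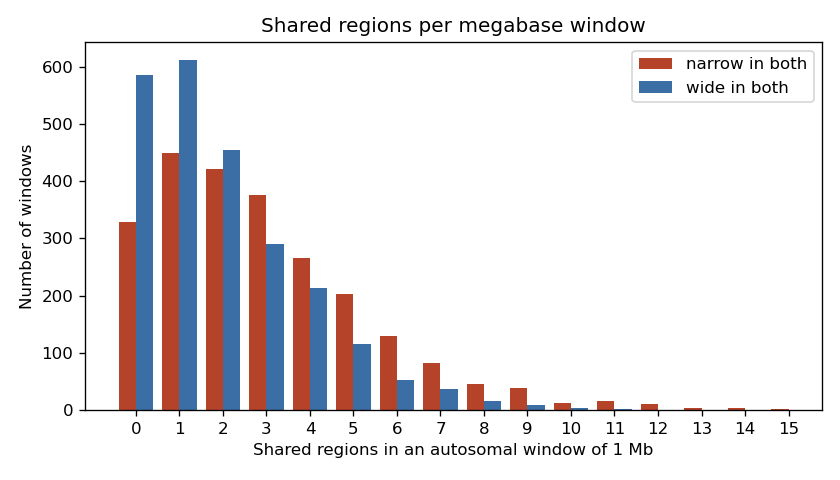
Number of autosomal windows of 1 Mb (vertical axis) by the count of merged regions in the window (horizontal axis), for regions narrow in both lists and regions wide in both lists. Members reach 15 in a window and leave 329 windows empty, against 11 and 586 for wide pairs.

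The densest megabase lay on chromosome 5 from 118000001 to 119000000 and held 15 members and 6 wide pairs. Its members scored from 118.73 to 344.30 in sample 1 and from 53.80 to 308.05 in sample 2, with medians of 241.4 and 101.0. A further window of chromosome 5, from 122000001 to 123000000, held 14 members, with sample 1 scores up to 578.07. The other windows with 14 members began at 69000001 on chromosome 10, at 114000001 on chromosome 11 and at 51000001 on chromosome 13, and held 5, 4 and 2 wide pairs. Of these 5 windows, the one on chromosome 13 had the lowest median sample 1 score of its members, 174.8, and the highest median sample 2 score, 134.9. The densest window of 100 kb held 7 members and 2 wide pairs and lay on chromosome 18 from 69500001 to 69600000. The next held 6 members and no wide pair, on chromosome 5 from 117100001 to 117200000. A further 7 windows tied at 5 members, 3 of them on chromosome 5, and 4 of these 7 held no wide pair.

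Most members stood alone. The median distance from one member to the next was 180.8 kb, with an interquartile range of 70.2 to 418.7 kb. Neighbours within 1 kb numbered 62 (0.828%), within 5 kb 209 (2.79%), within 10 kb 378 (5.05%) and within 100 kb 2475 (33.1%). Wide pairs, which are fewer, had a median spacing of 272.1 kb and 37 neighbours within 1 kb (0.779%). The median was 0.528 of the mean spacing for members and 0.509 for wide pairs. Joined at 5 kb, 7101 members were single, 181 chains held 2 members and 14 held 3, and no chain was longer. The chained members, 404 in all, had a median score of 187.2 in sample 1 and 105.1 in sample 2, against 197.7 and 108.3 for the single ones. The median spacing ran from 131.8 kb on chromosome 11 to 257.0 kb on chromosome 3 among the autosomes and was 270.0 kb on X.

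The closest neighbours lay 46 to 109 bp apart. On chromosome 12 the members from 40725461 to 40725540 and from 40725587 to 40725660 lay 46 bp apart and belonged to a chain of 3 that ended at 40729718. On chromosome 10 the strong member that starts at 60469360 lay 50 bp from another, from 60469213 to 60469309, which scored 112.42 in sample 1 and 174.04 in sample 2. On chromosome 19, members from 23390126 to 23390216 and from 23390274 to 23390350 lay 57 bp apart, with sample 1 scores of 493.25 and 107.80. Their sample 2 scores were 150.28 and 118.18. On X, members from 55218427 to 55218509 and from 55218601 to 55218668 lay 91 bp apart, with scores of 118.64 and 132.26 in sample 1. On chromosome 11, members from 31701931 to 31702005 and from 31702115 to 31702194 lay 109 bp apart. The chromosome 6 members from 44375302 to 44375374 and from 44375484 to 44375577 were also 109 bp apart. Partners in these close couples could differ several-fold in sample 1 score, as on chromosomes 10 and 19. Those couples differed less in sample 2, with 260.68 against 174.04 and 150.28 against 118.18. The chromosome 11 couple differed in both samples and in opposite order, with 136 and 323.21 in sample 1 and 165.95 and 80.4 in sample 2. The longest stretches with no member were 8.23 Mb on X, from 22417683 to 30643825, 7.59 Mb on chromosome 7, from 39059009 to 46652292, and 4.78 Mb on chromosome 12, from 47824928 to 52607420. How much of these stretches is assembly gap or repeated sequence was not tested.

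Other called regions lay at some distance from most members. The nearest pair wide in both lists was at a median of 141.7 kb, and 223 members (2.97%) had one within 5 kb. For pairs that met the sample 1 limit alone the median was 119.3 kb, with 339 members (4.52%) within 5 kb. For those that met the sample 2 limit alone it was 256.1 kb, with 124 members (1.65%). The nearest sample 2 region with no partner was at a median of 32.7 kb, and 919 members (12.2%) had one within 5 kb, but such regions number 21919. The nearest sample 1 region with no partner, of 4986, was at a median of 133.6 kb, with 208 members (2.77%) within 5 kb.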

How the data were processed

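Per the labels' protocols, epithelium was digested with dispase (2 hours, 37 °C) and fixed, each immunoprecipitation took 24 µg of sonicated chromatin, libraries were amplified before size selection, and 50-cycle single-end reads came from 2 lanes that were joined per replicate once aligned. The submitters' processing notes name Bowtie 0.12.7, bedtools 2.11.2 and mm9 but no settings. The deposited lists give position and a score per region. The score is the authors' peak caller value, with caller version, thresholds and control not given in the sources used here.

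Regions were compared in Python 3.11.15 with numpy 2.4.6, pandas 2.3.3 and scipy 1.17.1, and plotted with matplotlib 3.10.9. Pairs overlapped by 1 bp or more. The narrow limits of 105 and 100 bp, and the lists, rules and classes, were chosen with earlier results of these data known. Spanned length is the distance between the outermost called regions of a chromosome, over both lists. Windows are whole windows within that span, and a region is counted by its centre. Gaps run from the end of one merged region to the start of the next. Shares have exact (Clopper-Pearson) 95% intervals. X was tested with Fisher's exact test, with Benjamini-Hochberg adjustment over 3 comparisons, of which the comparisons with mixed-width pairs were added after the data were seen. Gene totals per chromosome (protein-coding) come from the RefSeq table of GRCm38.p6, of which no coordinates were used. Named regions follow 1 rule: the 10 members with the highest mean score percentile, the 5 densest windows of 1 Mb and of 100 kb with ties, and the 5 closest neighbours. Further regions were picked with their values in view. The planned location relative to genes was left out, because coordinates were not converted between builds. Overlap, class and window code was tested on simulated data and recovered all planted pairs. Depth per sample is unknown, as the lists hold no read counts. With 2 replicates in 1 group, no comparison between conditions exists.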

Additional observations from a re-analysis of the deposited data

Results flagged for a closer look

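Outside the chromosomes described, 4 pairs were narrow in both lists, all of them on chromosome Y and none on the mitochondrial genome. They are given because they lie in data the comparisons did not use and number more than the limit of 3 set for mention here. No control library was at hand for a background value, so whether they exceed background was not tested.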

How the results depend on the processing

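Asking for a reciprocal overlap of 50% left 7505 members, and moving both width limits by 5 bp gave 7032 or 7958. With the upper 50% of each list by score, members numbered 3890. The variance of 1 Mb windows was then 1.499 times the mean and the median spacing was 355.1 kb, with fewer regions used by construction. The X density ratio was 0.836, against 0.689 with all scores. It is a ratio of shares, which the number of regions does not set by construction, and the cause of this change was not tested. Lowering or raising the width limits by 5 bp gave a median spacing of 193.0 or 170.2 kb. Leaving out one replicate, so that all narrow regions of the other list entered, gave 16046 to 20196 regions, X density ratios of 0.495 to 0.663, variance ratios of 3.30 to 3.48 and median spacings of 69.4 to 81.5 kb. With windows of 100 kb the variance was 1.15 times the mean, but the mean count is lower there, and the excess over 1 divided by the mean was 0.491, against 0.361 in windows of 1 Mb. Measured against the share of wide pairs on X in place of length, the X density ratio was 2.29 and lay above 1, which the change of comparator itself gives. The X odds ratio of narrow against wide pairs stayed above 1 in all alternatives run, from 1.28 (sample 1 alone) to 2.54 (upper 50% by score). Fisher's exact p was under 0.05 in each (0.00185 for sample 1 alone). However, the test counts regions as independent, and the alternatives share regions with the main comparison. The narrow sample 1 regions include the members. Outside the members, X held 1.78% of those with only a wide partner and 2.52% of those with none. Of all wide sample 1 regions it held 2.43%. The cause of the lower odds ratio in sample 1 was not tested. The share of chromosome 5 relative to its length ran from 1.24 to 1.30, and rho between scores from 0.067 to 0.086. The promoter distance was not run, as gene location was not computed. No paired analysis was possible because there is 1 group. Depth is unknown, so regions missed in one list cannot be told from absent ones.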
